A study of Mus musculus with 8 samples.

Results

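The genes described here are the kidney metallothioneins and the zinc regulators around them, namely Mt1, Mt2, Mtf1 and Slc30a1. They were chosen by symbol, and all 4 had a row among the 30153 mouse gene identifiers measured (ENSMUSG00000031765, ENSMUSG00000031762, ENSMUSG00000028890 and ENSMUSG00000037434). The animals were hypertensive C57/BL6 mice overexpressing the human angiotensin receptor type 1 gene in its haplotype II form (Hap-II), and all of them received a western diet. Adult kidneys (4 libraries) were compared with aged kidneys (4 libraries), 1 library per animal. No group without the transgene or on another diet was analysed here, and neither ages in months nor the promoter driving the transgene were stated in the labels. Values are TPM, transcript abundances corrected for transcript length and scaled to a common total, from which read depth cannot be recovered. The deposited rows summed to between 924798 and 950974 TPM per library, so they do not themselves make up a common total.

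Metallothioneins are small cysteine-rich proteins that bind zinc, copper and cadmium, and in the kidney they are known mainly from the tubular epithelium, where they hold zinc and take up toxic metals. The transcription factor MTF-1, encoded by Mtf1, senses free zinc and binds metal response elements in the promoters of Mt1, Mt2 and Slc30a1. Slc30a1 encodes ZnT1, the zinc exporter of the plasma membrane. Glucocorticoids, acute phase signals and oxidative stress also induce Mt1 and Mt2.

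Mt1 and Mt2 are neighbours on chromosome 8 of GRCm38 in the GENCODE M21 annotation, Mt2 at 94172664 to 94173568 and Mt1 at 94179082 to 94180327, both on the plus strand and 5513 bases apart. Mtf1 lies on chromosome 4 at 124802104 to 124849800 and Slc30a1 on chromosome 1 at 191906767 to 191913247. The 250 bases before the RefSeq start of 3 of these genes (build GRCm38.p6) are shown because they hold metal response element cores, the letters through which MTF-1 is known to bind. All 4 genes matched an entry of that promoter table. Capitals mark each match to TGCACNC or TGCGCNC on either strand, and a match on the minus strand appears as its reverse complement.
Mt1, chr8:94178839-94179088, plus strand: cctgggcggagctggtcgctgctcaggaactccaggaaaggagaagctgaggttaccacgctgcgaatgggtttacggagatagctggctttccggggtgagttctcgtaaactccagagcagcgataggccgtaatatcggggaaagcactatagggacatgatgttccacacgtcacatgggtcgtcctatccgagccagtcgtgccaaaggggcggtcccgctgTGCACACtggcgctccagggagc
Mt2, chr8:94172368-94172617, plus strand: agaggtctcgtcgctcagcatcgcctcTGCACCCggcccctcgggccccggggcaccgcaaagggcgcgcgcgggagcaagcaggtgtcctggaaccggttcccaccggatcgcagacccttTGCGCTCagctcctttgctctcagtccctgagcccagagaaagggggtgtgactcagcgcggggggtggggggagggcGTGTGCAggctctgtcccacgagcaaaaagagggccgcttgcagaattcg
Slc30a1, chr1:191906531-191906780, plus strand: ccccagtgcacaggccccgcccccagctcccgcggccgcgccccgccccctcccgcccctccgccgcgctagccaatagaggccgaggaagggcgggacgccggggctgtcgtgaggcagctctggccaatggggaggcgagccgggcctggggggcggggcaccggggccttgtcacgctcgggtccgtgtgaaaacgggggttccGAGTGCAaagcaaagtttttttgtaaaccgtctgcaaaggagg

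The whole window searched was 300 bases, with 50 bases after the start, and 25.7% of 32851 mouse promoter windows held at least 1 match. Mt2 held 4 matches, 3 of them before the start, and 0.517% of windows held at least 4. Mt1 held 3 matches, of which TGCACAC began 23 bases before the RefSeq start. TGCACTC and TGCGCTC began at bases 3 and 21 counted from that start, and where transcription begins was not measured. At least 3 matches were found in 1.97% of windows. Slc30a1 held 2, both on the minus strand, and at least 2 were found in 7.11% of windows. The window of Mtf1, at 124802299 to 124802598, held 0. It lies inside the gene as GENCODE M21 places it, so the bases before that annotated start at 124802104 were not searched. A match describes letters only, and no binding was measured.

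The libraries of both age groups were split by Y-linked transcripts, a division that the labels do not name. The summed level of Ddx3y, Kdm5d, Eif2s3y and Uty lay between 0.485 and 2.30 TPM in replicates 1 and 2 of each group and between 34.7 and 50.6 TPM in replicates 3 and 4 of each group. Each class therefore held 2 adult and 2 aged libraries. In the class with Y-linked transcripts the share of mitochondrially encoded RNA was 24.5% to 46.9% of the TPM scale, against 19.6% to 32.9% in the class without, and genes at or above 1 TPM numbered 10663 to 11428 against 11802 to 12293. By age that share was 19.6% to 26.1% in adult and 26.8% to 46.9% in aged libraries, so that every aged library lay above every adult one, and its part in the age differences was not tested. Kidney markers were present in every library, with proximal tubule Slc34a1 at 270 to 1279 TPM and Umod of the thick ascending limb at 159 to 1477 TPM.

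Mt1 was the most abundant of the genes. It had 188, 115, 37.0 and 69.5 TPM in adult replicates 1 to 4, and 121, 146, 22.8 and 31.4 TPM in aged replicates 1 to 4. Replicates 1 and 2 were high and replicates 3 and 4 low in both age groups, and the age groups overlapped. Mt2, the companion gene whose protein has the same metal-binding role, had 86.4, 72.1, 20.5 and 31.2 TPM in adult libraries and 73.2, 119, 15.8 and 19.8 TPM in aged libraries. The same replicates were high and low as for Mt1, and aged replicate 2 was the highest of all libraries.

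Mtf1 had 7.44, 6.54, 11.9 and 6.10 TPM in adult libraries and 7.21, 6.42, 4.99 and 6.72 TPM in aged libraries. Adult replicate 3 stood above the other libraries, which lay between 4.99 and 7.44 TPM. Slc30a1 had 6.24, 3.06, 2.54 and 3.41 TPM in adult libraries and 3.26, 5.15, 2.42 and 5.04 TPM in aged libraries. Adult replicate 1 and aged replicates 2 and 4 were its higher libraries, so its order differed from that of the metallothioneins.

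**Figure D1:**
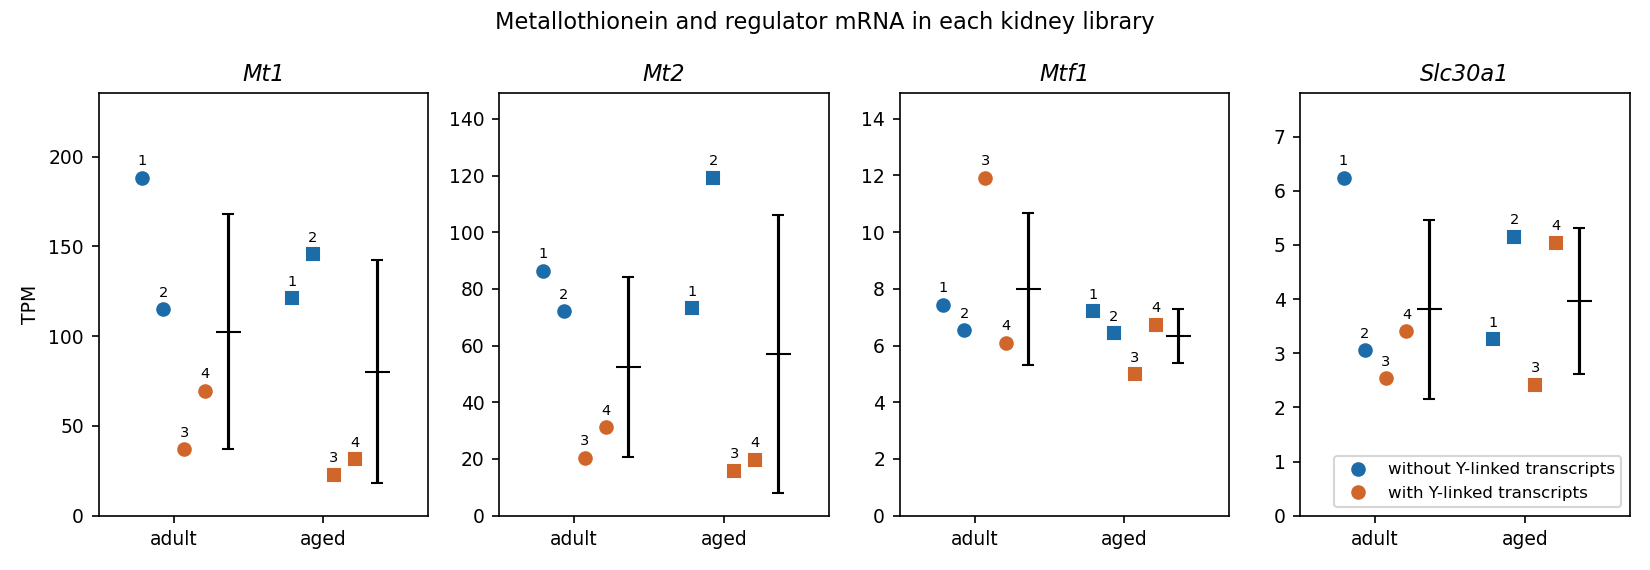
TPM of Mt1, Mt2, Mtf1 and Slc30a1 in each library, in separate panels with separate axes from 0. Points are single libraries labelled by replicate number, circles adult and squares aged, blue without and orange with Y-linked transcripts, and bars give the mean and SD of each age group (n = 4). For Mt1 and Mt2 every blue point lies above every orange point, while for Mtf1 and Slc30a1 the colours overlap.

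On the TPM scale, which allows levels of different genes to be compared, the order was Mt1, Mt2, Mtf1 and Slc30a1. Over all libraries they averaged 91.3 ± 60.3, 54.8 ± 38.3, 7.17 ± 2.06 and 3.89 ± 1.40 TPM (SD, n = 8). These means stood at the percentiles 92.2, 88.1, 47.8 and 30.6 of the 11796 genes tested, those with a mean of at least 1 TPM. Mt1 exceeded Mt2 in 8 of 8 libraries, Mt2 exceeded Mtf1 in 8 of 8 and Mtf1 exceeded Slc30a1 in 8 of 8. The spread of Mt1 and Mt2 over libraries was wider than the gap between their means, whereas the order within each library did not vary. The ranges of Mtf1 and Slc30a1 over libraries also met, since the highest Slc30a1 value (6.24 TPM) lay above the lowest Mtf1 value (4.99 TPM).

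The ratio of Mt1 to Mt2 was 2.18, 1.60, 1.80 and 2.23 in adult libraries and 1.65, 1.22, 1.44 and 1.59 in aged libraries. Its mean was 1.95 ± 0.304 in adult libraries and 1.48 ± 0.192 in aged libraries (SD, n = 4 each). The aged ratios lay in the lower part of the range, and the groups overlapped only in that aged replicate 1 stood above adult replicate 2. The ratio had no such split by Y-linked transcripts, with 1.66 ± 0.393 without and 1.77 ± 0.343 with them (SD, n = 4 each). Scaling of a library cancels in this ratio, which was not tested.

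**Figure D2:**
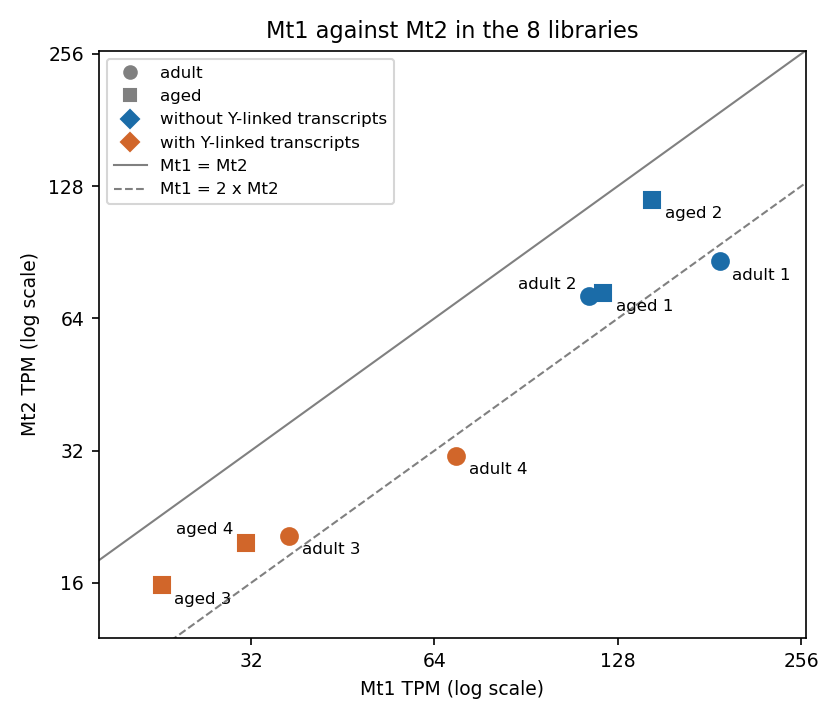
Mt1 against Mt2 in TPM, both on log axes, for the 8 libraries (circles adult, squares aged, blue without and orange with Y-linked transcripts). Grey lines mark equal levels and a ratio of 2, and the libraries fall into a low and a high set, with Mt1 between 22.8 and 69.5 TPM in the low set and between 115 and 188 TPM in the high set.

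The comparison of aged with adult kidneys asks how these transcripts change with age under the western diet, and no gene of the set passed it. Mt1 averaged 102 ± 65.5 TPM in adult libraries and 80.3 ± 62.3 TPM in aged libraries (SD, n = 4 each), a log2 difference of −0.52 (SE 0.63, 95% interval −1.91 to 0.86, limma adjusted p = 1.00). Mt2 averaged 52.5 ± 31.7 and 57.0 ± 49.0 TPM (log2 difference −0.13, SE 0.64, interval −1.54 to 1.28). Its mean TPM was higher and its mean log value lower in aged kidneys. Removing mitochondrial genes gave 0.15, and quantile normalization 0.08. With intervals this wide, these data do not show that the levels of Mt1 and Mt2 were alike in the age groups.

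Mtf1 averaged 8.00 ± 2.67 and 6.34 ± 0.954 TPM (log2 difference −0.26, SE 0.27, interval −0.86 to 0.34), and without adult replicate 3 the difference was −0.07. Slc30a1 averaged 3.81 ± 1.66 and 3.97 ± 1.35 TPM (0.06, SE 0.32, interval −0.64 to 0.76), and it was negative when adult replicate 2 or 3 or aged replicate 2 or 4 was omitted, with a lowest value of −0.07. The limma adjusted p was 1.00 for each. Among all 11796 genes 0 passed at an adjusted p of 0.05 (0% called), and 3.39% had an unadjusted p under 0.05, with 0 of the 4 genes described here among them. The age groups overlapped for all 4 of these genes. Of all genes 2.11% did not overlap with aged libraries lower and 0.348% with aged libraries higher. The median log2 difference of all genes was −0.11, and 65.0% of genes had negative differences. That direction turned with mitochondrial genes removed (median 0.14, 31.6% negative), without adult replicate 1 (0.04, 44.8%) and without aged replicate 3 (0.04, 45.3%), and quantile normalization gave 48.8% negative.

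Mt1 and Mt2 were lower in libraries with Y-linked transcripts than in those without, and Mtf1 and Slc30a1 did not pass that test. Mt1 had 142 ± 33.2 TPM without and 40.2 ± 20.4 TPM with Y-linked transcripts (SD, n = 4 each). The log2 difference was −1.89 (SE 0.28, interval −2.52 to −1.27, limma adjusted p = 0.00418 with age as a covariate). Mt2 had 87.7 ± 21.9 and 21.8 ± 6.57 TPM, a log2 difference of −1.97 (SE 0.25, interval −2.53 to −1.41, adjusted p = 0.00186). Summed, Mt1 and Mt2 averaged 230 TPM without and 62.0 TPM with them, a 3.71-fold difference. For both genes the lowest library without Y-linked transcripts lay above the highest library with them.

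Of all genes, 11.3% were called lower and 1.13% higher with Y-linked transcripts, and 21.3% were lower and 1.35% higher without overlap between the classes. The median log2 difference of all genes was −0.46, and 89.2% of genes had negative differences. With median-of-ratios size factors that median was 0.01, with calls split into 349 higher and 288 lower in place of 133 higher and 1331 lower. On that scale Mt1 differed by −1.33 (adjusted p = 0.0110) and Mt2 by −1.42 (adjusted p = 0.00559), so both remained called. Over 10 alternative settings and 8 single libraries left out, Mt1 and Mt2 passed each time, with adjusted p at most 0.0259 for Mt1 and 0.0145 for Mt2.

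Mtf1 had 6.90 ± 0.497 TPM without and 7.43 ± 3.07 TPM with Y-linked transcripts (SD, n = 4 each), a log2 difference of 0.03 (SE 0.24, interval −0.51 to 0.57, limma adjusted p = 0.918). It was −0.19 without adult replicate 3 and 0.53 with size factors. Slc30a1 had 4.43 ± 1.53 and 3.35 ± 1.21 TPM (−0.31, SE 0.28, interval −0.94 to 0.31, adjusted p = 0.384), and 0.13 with size factors. The sign for the exporter thus turned with the scaling, and that for the sensor with 1 library left out.

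**Figure D3:**
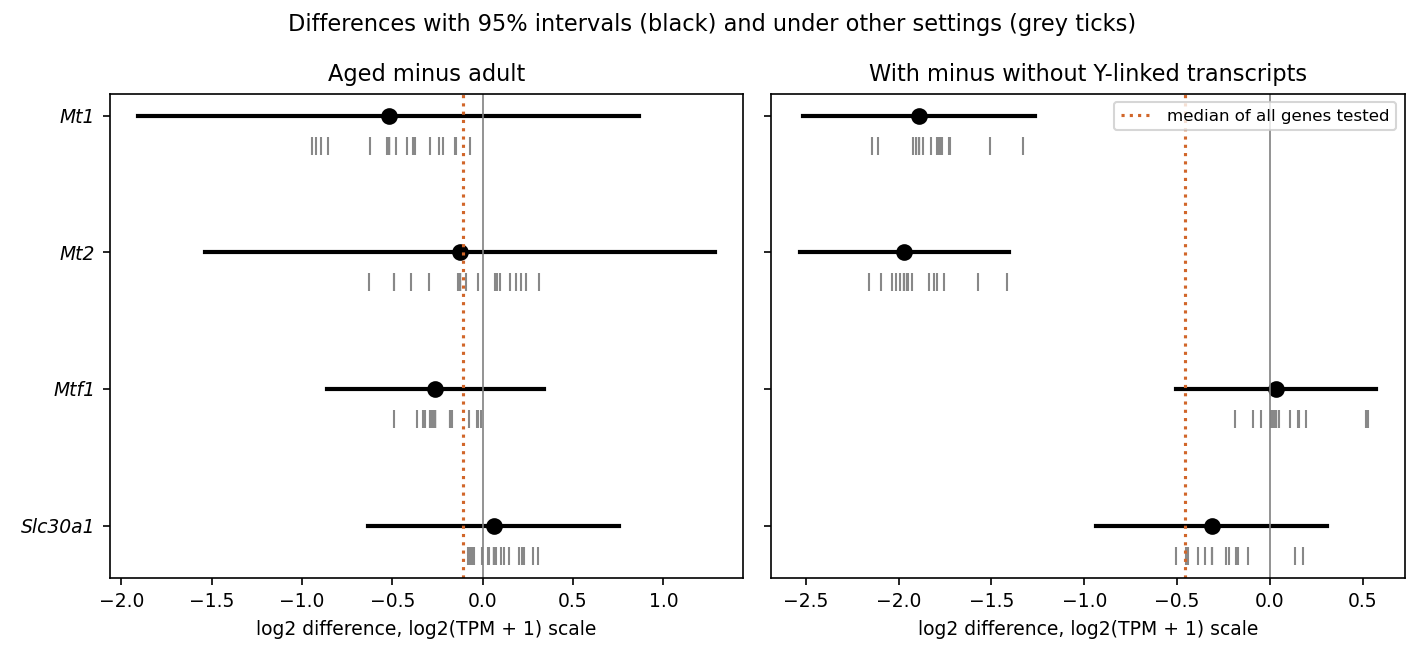
Log2 differences of Mt1, Mt2, Mtf1 and Slc30a1 on the log2(TPM + 1) scale, aged minus adult (left) and with minus without Y-linked transcripts (right), with 95% intervals as black lines (n = 8 libraries). Grey ticks are the same differences under other settings and with single libraries left out, and the dotted orange line is the median of all genes tested (−0.11 and −0.46). On the right the intervals of Mt1 and Mt2 lie below both 0 and the dotted line, and all other intervals include 0.

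Adding the class to the age comparison narrowed the errors of the metallothioneins. The age difference of Mt1 then had an SE of 0.28 in place of 0.63 (unadjusted p = 0.0926, limma adjusted p = 0.670), and that of Mt2 an SE of 0.25 (adjusted p = 0.954). Within the 4 libraries without Y-linked transcripts aged minus adult was −0.15 for Mt1 and 0.24 for Mt2, and within the 4 with them −0.90 and −0.49. The difference between these, tested as an interaction, was −0.75 for Mt1 (SE 0.54) and −0.73 for Mt2 (SE 0.49), each with adjusted p = 1.00. Of all genes 0.0339% passed this interaction test and 2.08% had an unadjusted p under 0.05, with 0 of the genes described here in either count. Those that passed were Gm10925, Gm12918, Gm28438 and Gm4737, named after their values were seen.

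Markers of kidney cell types were compared between the same classes, and their part in the metallothionein difference was not tested. Over all genes 89.2% had negative differences, 11.3% were called lower and the median was −0.46. With size factors 2.46% of all genes were called lower and the median was 0.01. In bulk tissue fewer cells of a type and less RNA per cell cannot be told apart. All 4 thick ascending limb markers were called lower with Y-linked transcripts, with a median of −1.60 and summed levels of 227 to 466 TPM against 882 to 1805 TPM. With size factors all 4 stayed called, with a median of −1.03. Of 12 proximal tubule markers 10 had negative differences and 0 were called lower, while Slc7a13, an amino acid transporter of the last proximal segment, was called higher, at 171 to 292 TPM against 0.362 to 1.34 TPM. Their median was −0.79 and their summed levels overlapped, at 1971 to 4560 TPM with and 2027 to 6757 TPM without. With size factors the proximal tubule median was −0.22, and 7 of 12 were negative. Of 8 distal and collecting duct markers all 8 had negative differences and 2 were called lower (median −1.06, summed 124 to 266 TPM against 257 to 565 TPM), and of 7 macrophage markers all 7 had negative differences and 2 were called lower (median −1.04, 65.6 to 134 TPM against 155 to 320 TPM). With size factors 0 of either list were called, and the medians were −0.53 and −0.50. Podocyte and endothelial markers had 0 of 5 and 0 of 6 called, with medians of −0.59 and −0.28. With size factors those medians were −0.07 and 0.24. Hepatocyte markers were near 0 in part, with Apoa1 at 0 to 2.86 TPM. Of 4 tested, 2 had negative differences and 1, Alb, was called lower (−1.81), while Ttr (0.27) and Serpina1a (0.57) were positive. Their median was −0.24. With size factors it was 0.29, and 2 of 4 were called, counting both directions. Of 5 red cell markers all 5 had negative differences and 2 were called lower (median −1.96), and 0 were called with size factors. Their summed levels overlapped, at 1116 to 2768 TPM with and 933 to 14661 TPM without Y-linked transcripts.

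The other metallothioneins were low or at 0 in these kidneys. Mt3, known from brain, had 3.33, 1.33, 1.62 and 1.18 TPM in adult libraries and 0.800, 1.66, 0.0653 and 0.0934 TPM in aged libraries. Its log2 difference was −0.84 (SE 0.36, unadjusted p = 0.0395, limma adjusted p = 1.00), with aged replicate 2 inside the adult range. Mt4, known from stratified epithelium, was listed at 0 in every library.

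Zinc exporters of the Slc30 family move zinc out of the cytosol. Of 9 other members 3 were listed at 0 in every library, namely Slc30a3, Slc30a8 and Slc30a10, and 6 were tested. None passed for age, 5 had positive differences, and the median was 0.04 against −0.11 for all genes. It was 0.32 with mitochondrial genes removed, −0.03 when adult replicate 3 was omitted and −0.02 when aged replicate 4 was. The smallest unadjusted p was that of Slc30a6 (0.474), at 4.27 TPM in adult libraries and 5.01 TPM in aged libraries, followed by Slc30a4 at 2.99 and 2.54 TPM. By class the median was −0.17, and 0.30 with size factors.

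Slc30a2, which loads zinc into vesicles, was singled out after its values were seen, because its classes did not overlap in the direction opposite to Mt1. It had 13.1, 9.67, 15.8 and 23.9 TPM in adult libraries and 7.01, 12.5, 16.6 and 35.4 TPM in aged libraries. All libraries with Y-linked transcripts lay above all without, as for 1.35% of all genes. The log2 difference of 1.01 (SE 0.30, limma adjusted p = 0.0541) did not pass. It passed with size factors (1.54, adjusted p = 0.00208), quantile normalization (1.50, 0.00341), mitochondrial genes removed (1.21, 0.0450), a mean of at least 5 TPM (0.0494) and array weights (0.0230). Thus it passed in 5 of 10 other settings, and in 0 of 8 fits that left out a library (limma adjusted p 0.0689 to 0.108). For age Slc30a2 differed by 0.03.

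Zinc importers of the Slc39 family were measured at up to 41.8 TPM, with 11 of 14 tested. None passed for age, 8 of 11 had negative differences and the median was −0.25, beside −0.11 and 65.0% over all genes. The median was 0.0173 with mitochondrial genes removed, 0.0197 without aged replicate 3 (5 of 11 negative in each) and −0.00920 without adult replicate 1. The smallest unadjusted p values belonged to Slc39a1 (0.308) at 28.4 TPM in adult libraries and 22.4 TPM in aged libraries and to Slc39a14 (0.362) at 7.15 and 9.04 TPM. Between the classes of libraries all 11 had negative differences with a median of −0.58, beside 89.2% and −0.46 over all genes. Of the 11, 2 were called lower with Y-linked transcripts, beside 11.3% of all genes.

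Slc39a5, a zinc importer of the basolateral membrane, was one of these, with 41.2, 16.6, 3.63 and 7.70 TPM in adult libraries and 10.9, 28.6, 1.61 and 5.75 TPM in aged libraries. Every library without Y-linked transcripts lay above every library with them, as for 21.3% of all genes. The log2 difference was −2.13 (SE 0.43, limma adjusted p = 0.0169). It was −1.64 with size factors (0.0237), and it missed the threshold when adult replicate 3 (0.0561), aged replicate 2 (0.0562) or aged replicate 3 (0.0619) was omitted and with no filter (0.0604). Slc39a13, which moves zinc out of the secretory pathway, had 18.7 and 7.77 TPM without and with them (−1.17, adjusted p = 0.0282), and was not called with size factors (−0.64, 0.117) or in 4 of 8 fits that left out a library (at most 0.0964). With size factors the median of the importers was −0.07, so their common direction depended on the scaling.

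**Figure D4:**
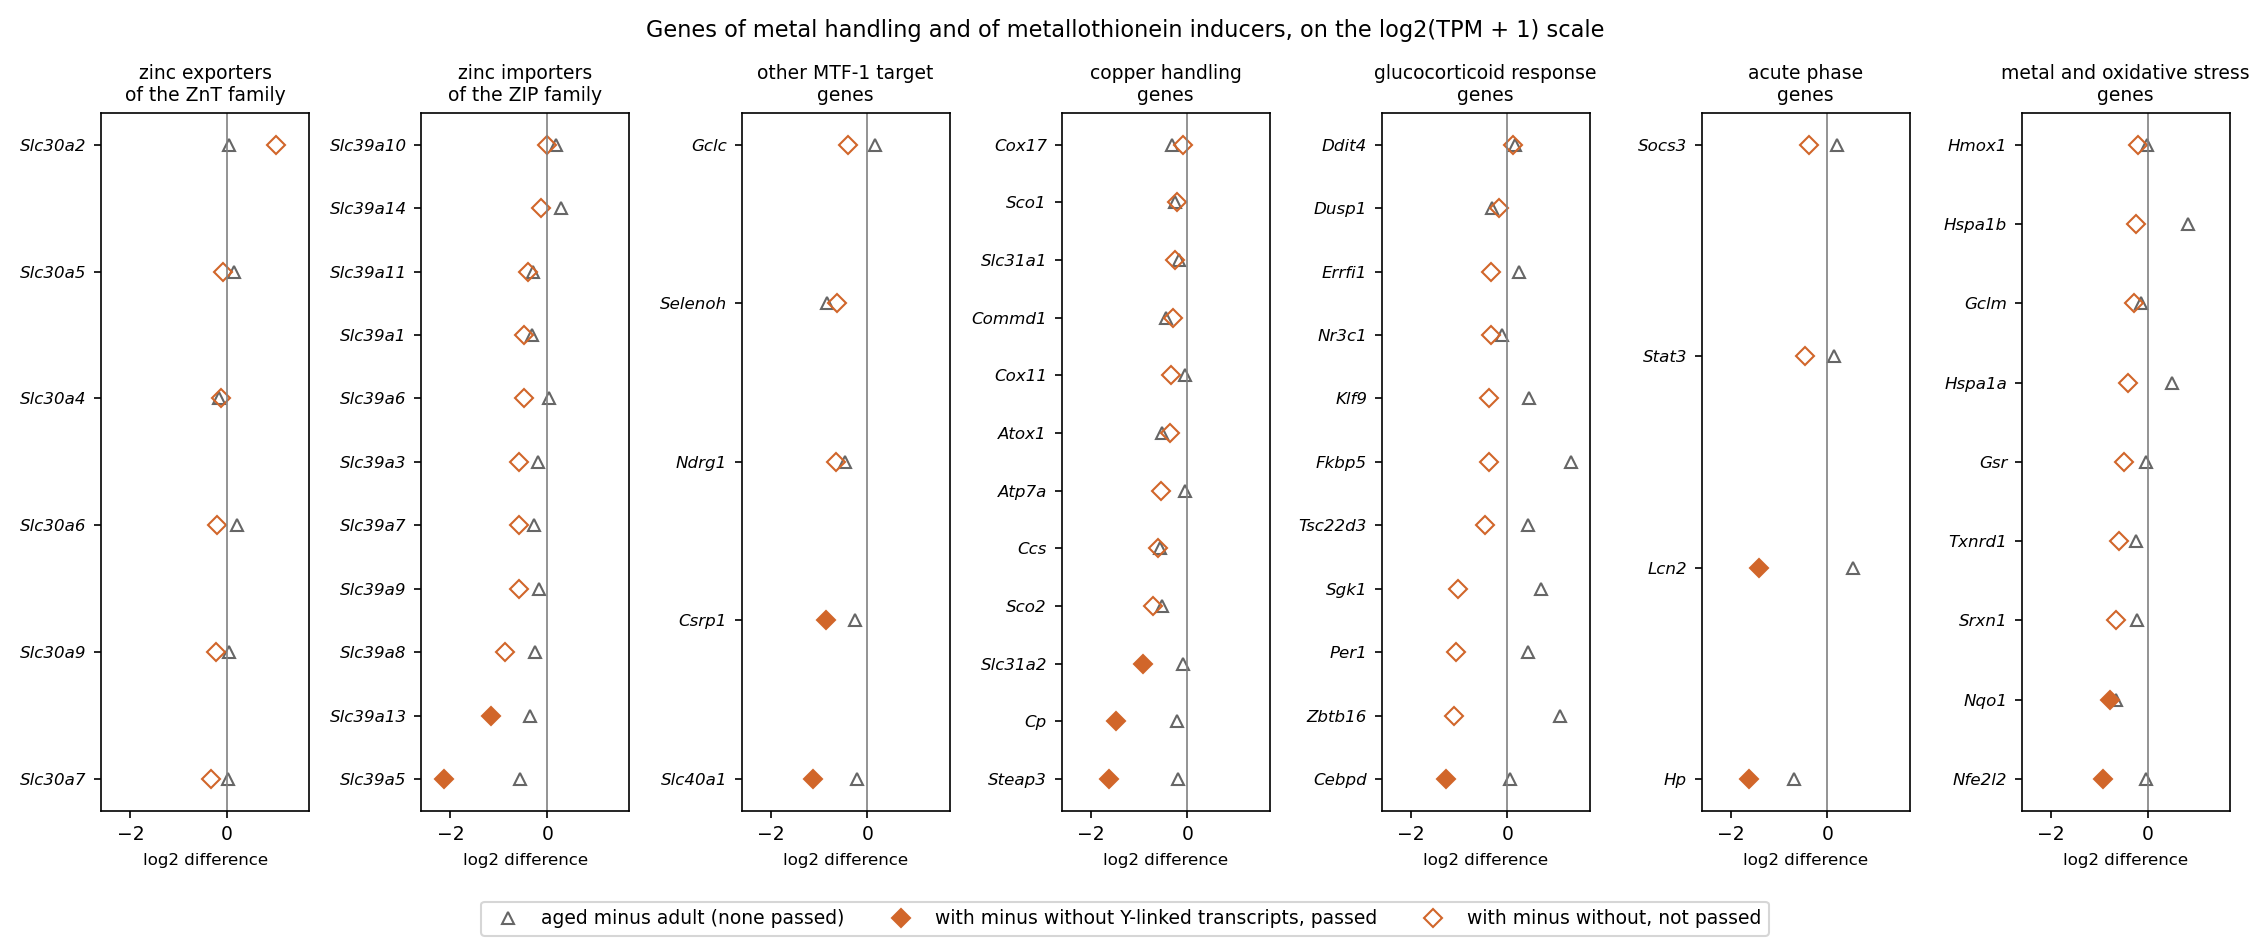
Log2 differences on the log2(TPM + 1) scale of genes of metal handling and of metallothionein inducers, 1 panel per list and 1 row per gene with a mean of at least 1 TPM. Grey triangles are aged minus adult (0 passed) and orange diamonds are with minus without Y-linked transcripts, filled where the adjusted p was under 0.05. Filled diamonds all lie to the left of 0, from −2.13 for Slc39a5 to −0.78 for Nqo1, and Slc30a2 is the open diamond farthest to the right.

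Other reported targets of MTF-1 were also not called for age. Of 6 tested, which include Slc39a10 of the importers above, 4 had negative differences, with a median of −0.23. With mitochondrial genes removed the median was 0.04 and 2 of 6 were negative, and it was 0.00326 with array weights and −0.0112 without aged replicate 3. Selenoh, a selenoprotein, averaged 19.8 and 12.5 TPM in the adult and aged groups (−0.83, SE 0.41, unadjusted p = 0.0671), or −0.42 without aged replicate 3. The stress gene Ndrg1 averaged 816 and 617 TPM (−0.46), or −0.24 without adult replicate 1. By class 2 of 6 were called lower with Y-linked transcripts, beside 11.3% of all genes. The iron exporter Slc40a1 had 28.0 ± 4.70 TPM without and 12.5 ± 3.27 TPM with them (SD, n = 4 each), a log2 difference of −1.12 (SE 0.23, limma adjusted p = 0.0183). That call was lost without adult replicate 1, adult replicate 3, aged replicate 2 or aged replicate 3 (adjusted p 0.0532 to 0.0677). The LIM-domain gene Csrp1 had 37.8 and 20.2 TPM (−0.85, adjusted p = 0.0261), and was not called with size factors (adjusted p = 0.536) or in 5 of 8 fits that left out a library. The median of the list by class was −0.63, against −0.46 for all genes, and −0.09 with size factors.

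Copper handling genes, which share metallothionein as a metal store, had negative age differences in 12 of 12 tested, with a median of −0.24 and 0 calls, beside 65.0% negative over all genes. With mitochondrial genes removed 7 of 12 were negative (median −0.0111), without adult replicate 1 it was 6 of 11 (−0.0189), and without aged replicate 3 it was 7 of 12 (−0.0960). The copper chaperone Atox1 had 436, 502, 444 and 418 TPM in adult libraries and 394, 374, 251 and 250 TPM in aged libraries. Every aged library lay below every adult library, as for 2.11% of all genes, and the log2 difference was −0.53 (SE 0.23, unadjusted p = 0.0410, limma adjusted p = 1.00). Ccs, the chaperone that loads copper onto superoxide dismutase, had 117 and 79.8 TPM (−0.57, or −0.33 without aged replicate 3), with overlap.

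By class 3 of 12 copper genes were called lower with Y-linked transcripts, beside 11.3% of all genes. The list median was −0.46, the same as for all genes, or 0.07 with size factors. The ferroxidase Cp had 29.5, 19.8, 11.3 and 9.24 TPM in adult libraries and 27.4, 24.6, 6.64 and 7.03 TPM in aged libraries. All libraries with Y-linked transcripts lay below all without, as for 21.3% of all genes. The log2 difference of Cp was −1.48 (SE 0.22, limma adjusted p = 0.00408). It missed the threshold with size factors (adjusted p = 0.0550). Steap3, a metalloreductase, had 4.94 TPM without and 0.825 TPM with them (−1.63, adjusted p = 0.00901). It kept its call in all 9 other settings that tested it and in 8 of 8 fits that left out a library. Its mean of 2.88 TPM over all libraries passed the filter of 1 TPM only through those without Y-linked transcripts. Slc31a2, a copper transporter, had 16.0 and 8.06 TPM (−0.92, adjusted p = 0.0278), and was lost with size factors (0.192) and in 5 of those 8 fits.

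Glucocorticoid response genes, listed because glucocorticoids induce Mt1 and Mt2, had positive age differences in 9 of 11 tested, with a median of 0.43 against −0.11 for all genes and 0 calls. Omitting aged replicate 1 gave a median of 0.12, omitting adult replicate 3 gave 0.13, omitting aged replicate 2 gave 0.22, and array weights gave 0.15. Fkbp5, a cochaperone of the glucocorticoid receptor, had 3.70, 6.07, 6.42 and 13.7 TPM in adult libraries and 33.6, 31.4, 8.16 and 12.1 TPM in aged libraries. Aged replicates 1 and 2 stood high, and the other aged libraries lay within the adult range. The difference was 1.31 (SE 0.48, unadjusted p = 0.0188, limma adjusted p = 1.00), or 2.54 without and 0.07 with Y-linked transcripts. Its interaction of −2.47 (SE 0.57) had an unadjusted p of 0.00182 and an adjusted p of 1.00.

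Zbtb16, a transcription factor known as a glucocorticoid target, had at most 0.327 TPM in adult libraries and 4.53, 3.44, 0.126 and 0.233 TPM in aged libraries. The same aged libraries were high as for Fkbp5, and the age difference was 1.08 (unadjusted p = 0.0506, limma adjusted p = 1.00). Zbtb16, at a mean of 1.11 TPM over all libraries, passed the filter of 1 TPM only through aged replicates 1 and 2. Mt1 had 121 and 146 TPM in aged replicates 1 and 2, against 188 and 115 TPM in adult replicates 1 and 2. Mt2 had 73.2 and 119 TPM there, against 86.4 and 72.1 TPM. By class 1 of 11 tested, Cebpd, was called lower with Y-linked transcripts, beside 11.3% of all genes. Cebpd had 2.42 TPM without and 0.408 TPM with them (−1.28, limma adjusted p = 0.00936). That call held in all 9 other settings that tested Cebpd and in 8 of 8 fits that left out a library. Cebpd, at a mean of 1.42 TPM over all libraries, passed the filter of 1 TPM only through those without Y-linked transcripts. With a filter of 5 TPM it was not tested.

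Acute phase genes were mostly near 0, with 4 of 11 tested and 3 listed at 0 in every library. None passed for age. Lcn2, an iron-sequestering protein released by injured tubules, averaged 4.59 and 7.12 TPM in the adult and aged groups (0.52), and the hemoglobin-binding Hp 2.63 and 1.92 TPM (−0.70). With single libraries left out these differences ran from 0.06 (without adult replicate 3) to 0.88 (without adult replicate 1) for Lcn2 and from −1.32 (without aged replicate 1) to −0.35 (without aged replicate 4) for Hp. Both were called lower with Y-linked transcripts (−1.42 and −1.61, limma adjusted p 0.0355 and 0.0267), as were 11.3% of all genes. Neither was called with size factors (0.179 and 0.136), and they were lost in 5 and 3 of 8 fits that left out a library. Hp averaged 0.607 TPM with Y-linked transcripts, so it passed the filter of 1 TPM only through the libraries without them.

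Metal and oxidative stress genes had 9 of 10 members tested, 7 with negative age differences and a median of −0.04. The median was 0.24 with mitochondrial genes removed, 0.16 with quantile normalization and 0.06 with size factors, and it was 0.17 when adult replicate 1 was omitted and 0.05 when aged replicate 3 was. The heat shock gene Hspa1b had 4.20, 5.42, 1.05 and 2.41 TPM in adult libraries and 5.90, 3.54, 9.91 and 6.13 TPM in aged libraries (0.85, SE 0.40, unadjusted p = 0.0547, limma adjusted p = 1.00). Within the libraries without Y-linked transcripts alone its difference was −0.0450, and within those with them 1.74. The interaction was 1.78 (SE 0.56, unadjusted p = 0.0106, adjusted p = 1.00). The quinone reductase Nqo1 averaged 30.3 and 20.2 TPM (−0.65, or −0.37 without aged replicate 3). By class 2 of 9 were called lower with Y-linked transcripts, beside 11.3% of all genes. These were Nqo1 (−0.78, limma adjusted p = 0.0455) and the transcription factor gene Nfe2l2 (−0.92, adjusted p = 0.0187). Under size factors the adjusted p was 0.618 and 0.198, and leaving out 1 library lost the calls in 7 and 5 of 8 fits.

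Across the 8 libraries Mt1 and Mt2 varied together, with a Pearson r of 0.967 on the log2(TPM + 1) scale. Slc30a1 had r of 0.544 with Mt1 and 0.525 with Mt2. Mtf1 had r of 0.02 with Mt1, −0.05 with Mt2 and −0.08 with Slc30a1. These values describe 8 libraries that share the split by Y-linked transcripts, and Mt1 and Mt2 follow that split.

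The genes most like Mt1 by r over the 8 libraries were Slc25a20, Cav1, Rap1gap, Maged2 and Hmg20b (0.988 to 0.989). Slc25a20, the mitochondrial carnitine carrier, ran from 18.6 to 48.7 TPM. Those most like Mt2 were Sgpp2, Spp1, Col8a1, Esrrb and Josd1 (0.986 to 0.993). Spp1, which encodes the secreted phosphoprotein osteopontin, ran from 165 TPM to 2143 TPM, the highest in aged replicate 2, as for Mt2. Mt1 was not among the 5 genes nearest Mt2, nor Mt2 among those nearest Mt1.

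For Slc30a1 the nearest were Tmem131, Prrc1, Ikbke, Dis3l2 and Ncl (0.986 to 0.990). For Mtf1 they were Fgd6 (0.929), Gm14870, Gm26897 and Gm15175 (0.881 each) and Fbxw15 (0.871). All 5 were highest in adult replicate 3, and 3 of them were listed at 0 in the other 7 libraries, so the likeness to Mtf1 rests on that library.

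On the transcript strand these genes shared little sequence with other genes. Of the 31-base words of the annotated transcripts, 0% of those of Mt1, Mtf1 and Slc30a1 occurred in another gene, and 0.524% of those of Mt2 (3 of 573, in Pip5k1a). Words shared with transcripts of the opposite strand were not counted. Mt2 and Slc30a1 overlap an antisense gene, and Mtf1 overlaps a protein-coding gene on the other strand and the ribosomal RNA gene n-R5s192 on its own strand. The library kit keeps strand per the labels, and whether the counting used it is not given in the sources used here.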

How the data were processed

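Kidney mRNA was sequenced from stranded polyadenylated libraries, per the labels' protocols. The deposited table holds TPM per Ensembl gene for 8 libraries, made by the authors. Kallisto, DESeq2 and GRCm38 are listed in the submitters' processing notes, with no role or version. TPM keep no read depth, so the precision that depth gives is unknown. Identifiers were matched to symbols (98.6%), and 7 were summed by symbol.

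Groups came from the labels (4 adult, 4 aged). Values were analysed as log2(TPM + 1) for genes with a mean of at least 1 TPM, with limma 3.58.1 (trend) in R 4.3.3. P-values were adjusted by Benjamini-Hochberg over all 11796 genes, with a threshold of 0.05, and were two-sided. A second comparison split libraries at 10 TPM of 4 summed Y-linked genes, with age as a covariate, and an interaction term tested the difference between the classes. Fold changes on this scale understate those of low genes. The fits were also run on simulated data with known shifts. For the age fit those data held no split by Y-linked transcripts, so they cannot show how it behaves here.

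Members and gene lists were chosen with earlier results of these data known. Named genes were, per list, those with the smallest unadjusted p for age and all that passed, and the 5 genes with the highest Pearson r for each member. Alternatives were other pseudocounts, filters, scalings and fits, and each library left out.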

Additional observations from a re-analysis of the deposited data

Results flagged for a closer look

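Slc30a4, a zinc exporter of intracellular vesicles, had 3.15 TPM in aged replicate 2, while the other aged libraries lay between 2.26 and 2.40 TPM. The gap to the nearest library was 0.846 of the group's range, above Dixon's critical value for a group of 4. It was the only library so marked among 60 groups examined, and chance marks about 1 in 20 groups.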

How the results depend on the processing

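Depth is unknown, each class holds 4 libraries, and the classes differ in mitochondrial share and marker levels, whose part was not tested. The number of genes called for age was 0, and it was 1 with array weights, 3 when libraries without Y-linked transcripts were fitted alone, 60 when those with them were, and 0 to 2 when single libraries were left out. The number called by class was 1464, and it was 762 with no filter, 637 with size factors, 636 with quantile normalization, 718 with mitochondrial genes removed, 4291 with array weights, and from 400 (without aged replicate 3) to 2048 (without aged replicate 4) when single libraries were left out. The cause was not tested.

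For age, Mt2 turned from −0.13 to 0.0804 with quantile normalization, 0.15 with mitochondrial genes removed, 0.0707 with array weights and 0.24 when libraries without Y-linked transcripts were fitted alone. In those alone Slc30a1 was −0.0825 and Hspa1b −0.0450, and Slc30a4 was 0.0423 with mitochondrial genes removed. With single libraries left out the age differences ran from −0.94 to −0.07 for Mt1, −0.63 to 0.31 for Mt2, −0.36 to −0.07 for Mtf1 and −0.0686 to 0.28 for Slc30a1. By class Slc30a1 was 0.13 with size factors and 0.18 with quantile normalization, and Mtf1 −0.0926 with array weights. With single libraries left out the class differences ran from −2.15 to −1.73 for Mt1, −2.16 to −1.76 for Mt2, −0.19 to 0.16 for Mtf1 and −0.51 to −0.12 for Slc30a1. The cause of these turns was not tested.

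With the replicate number as a block, 0 genes passed for age, and Mt1 differed by −0.52 (SE 0.26, limma adjusted p = 0.696). Deviations of same-numbered libraries correlated at 0.04, 0.18, 0.49 and 0.42 for numbers 1 to 4. Adult replicates 3 and 4 correlated best with their own numbers. Adult replicate 1 correlated best with aged replicate 2 (0.57), and adult replicate 2 with aged replicate 1 (0.41). These deviations also carry the split by Y-linked transcripts, so they cannot decide on pairing. The numbers were not taken as pairs.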
